A study of Mus musculus with 3 samples.

Results

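Tenocytes that carried *Slurp1*, *Serpinb7*, *Vcan*, *Egln3* or *Sema3e* transcripts were examined in droplet single-cell RNA sequencing of mouse flexor digitorum longus (FDL) tendon, the tendon that bends the digits of the hind paw. A tenocyte was a cell with at least 10 unique molecular identifiers (UMIs, each 1 captured transcript) of *Tnmd*, *Fmod*, *Kera* and *Cilp2* together, with fewer UMIs of 6 epitenon genes (*Efemp1*, *Pi16*, *Scara5*, *Cd248*, *Krtdap*, *Ccn3*), with at most 2 of the myeloid genes *Tyrobp* and *Fcer1g* and with none of the endothelial genes *Pecam1* and *Cdh5*. A member was a tenocyte with at least 3 UMIs of the 5 marker genes in sum, at most 2 of *Igfbp3*, *Scn7a*, *Hmcn1* and *Smoc2*, and at most 4 of *Slpi*, *Cxcl3*, *Csf2* and *Il4i1*. The rule found 2514 members among 8571 tenocytes and 19709 cells that had 1000 to 5000 detected genes and at most 10% mitochondrial UMIs.

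The study asked what loss of Scleraxis-lineage cells in young adult tendon shares with natural ageing. The 6 M WT library came from Scx-Cre-; DTR F/+ mice and the 6 M DTR library from Scx-Cre+; DTR F/+ mice, and both groups received 5 hind paw injections of diphtheria toxin (DT) at 3 months of age, with tendons taken 3 months later. Both carried the ROSA26 diphtheria toxin receptor allele behind a stop cassette, and Cre driven by the *Scx* promoter removed that cassette only in the DTR mice, so that the toxin could kill cells of the *Scx* lineage. The 21 M B6 library came from untreated C57BL/6J mice at 21 months. Each library pooled 16 tendons of both sexes and was the only one of its group, so that no replicate error exists, no test between groups was possible, and every interval below covers counting error alone. The WT tissue was digested for 2 h and the tissue of both other groups for 1.5 h, and a difference from WT cannot be told apart from an effect of digestion time.

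Tenocytes are the fibroblasts that lie between the collagen fibres of a tendon and build its matrix, while the epitenon is the thin cell layer around it. The 5 marker genes encode proteins of unlike kinds. *Slurp1* encodes a small secreted protein of the LY6/uPAR family that acts on nicotinic acetylcholine receptors and is best known from the epidermis. *Serpinb7* encodes an intracellular inhibitor of serine proteases, also best known from skin. *Vcan* encodes versican, a large chondroitin sulfate proteoglycan that binds hyaluronan and swells the pericellular matrix. *Egln3* encodes a prolyl hydroxylase that marks hypoxia-inducible factor (HIF) for destruction and is itself a HIF target. *Sema3e* encodes a secreted semaphorin that signals through a plexin. The cut-offs were set on genes that an earlier clustering of these same cells had brought out, so the marker levels and all comparisons of members with other tenocytes are descriptions and not tests.

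The sequences just upstream of 4 of the 5 marker genes are shown because these genes were counted together in the same cells. Each run is the 250 bases before the annotated start, 5′ to 3′ on the gene's strand, from RefSeq on GRCm38.p6, and capitals mark matches on either strand to 4 motifs. The first was the core of a HIF response element, spelled ACGTG, together with its variant spelled GCGTG. The second was the E-box, spelled CANNTG, the third was the AP-1 site, spelled TGANTCA, and the fourth was the TATA box, spelled TATAAA. *Serpinb7* lies on the plus strand at chr1:107422439-107422688, *Vcan* on the minus strand at chr13:89742513-89742762, *Egln3* on the minus strand at chr12:54203875-54204124 and *Sema3e* on the plus strand at chr5:14025026-14025275.
Serpinb7: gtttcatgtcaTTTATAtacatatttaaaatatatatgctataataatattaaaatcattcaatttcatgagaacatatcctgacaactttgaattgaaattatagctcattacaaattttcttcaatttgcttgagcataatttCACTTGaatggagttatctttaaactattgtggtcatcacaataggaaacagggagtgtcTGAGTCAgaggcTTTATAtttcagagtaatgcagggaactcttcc
Vcan: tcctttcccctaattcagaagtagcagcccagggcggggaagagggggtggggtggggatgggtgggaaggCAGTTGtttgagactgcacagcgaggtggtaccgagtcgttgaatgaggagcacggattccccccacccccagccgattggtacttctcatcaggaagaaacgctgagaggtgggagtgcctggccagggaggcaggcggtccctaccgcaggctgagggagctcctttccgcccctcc
Egln3: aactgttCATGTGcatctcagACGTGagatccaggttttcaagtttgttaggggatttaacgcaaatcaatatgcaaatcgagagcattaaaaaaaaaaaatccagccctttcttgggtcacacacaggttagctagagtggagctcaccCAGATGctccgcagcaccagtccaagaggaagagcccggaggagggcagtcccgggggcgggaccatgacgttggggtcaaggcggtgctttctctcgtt
Sema3e: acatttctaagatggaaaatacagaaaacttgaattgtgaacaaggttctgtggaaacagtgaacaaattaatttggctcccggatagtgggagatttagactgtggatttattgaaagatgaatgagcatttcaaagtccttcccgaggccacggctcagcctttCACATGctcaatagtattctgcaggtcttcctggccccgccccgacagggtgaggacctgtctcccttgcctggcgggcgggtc
The HIF core was present in the *Egln3* window alone among these 4, and in 38.6% of all 32851 promoter windows of the same length. An E-box was present in all 4 windows and in 66.2% of all windows. The AP-1 letters and the TATA letters were found in the *Serpinb7* window alone of the 4, against 6.75% and 12.4% of all windows, and the 2 TATA matches there overlapped no other motif. A match is a string of letters and not a measured binding site.

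Members made up 35.0% of the tenocytes in 6 M WT (1769 of 5055, exact binomial 95% interval 33.7 to 36.3%), 22.8% in 6 M DTR (587 of 2579, 21.2 to 24.4%) and 16.9% in 21 M B6 (158 of 937, 14.5 to 19.4%). The share was thus 35.0% lower in DTR and 51.8% lower in B6 than in WT, and the 3 intervals did not overlap. Of all kept cells, members were 21.2% in WT, 8.96% in DTR and 3.29% in B6, and tenocytes themselves were 60.5% of kept cells in WT, 39.4% in DTR and 19.5% in B6. With every cell thinned to 5000 UMIs before the rule was applied, which left out 477, 483 and 212 shallower cells, the shares of tenocytes were 21.3%, 12.7% and 10.0%, and the intervals of DTR and B6 then overlapped. WT was above both other libraries in each of the 13 alternative settings tried.

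**Figure D1:**
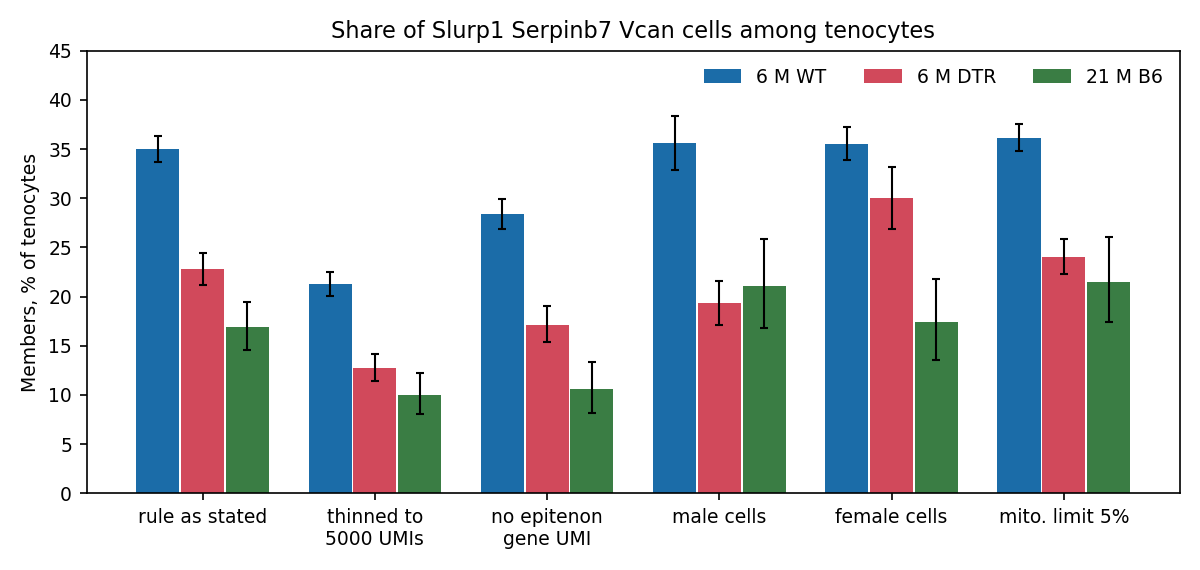
Percentage of tenocytes that met the member rule (y axis) in the single library of each group under the rule as stated and 5 other settings (x axis), with exact binomial 95% intervals for counting error. The WT bar is the tallest in every setting shown, while the DTR and B6 bars lie close together in male cells, at 19.3% and 21.0%.

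The order of the DTR and B6 libraries was less firm than the place of WT. Sex was called cell by cell from *Xist* and Y-linked transcripts, and 71.8% of the sexed WT members were female, against 51.1% in DTR and 46.9% in B6. Among cells called female, members were 35.5% of WT, 30.0% of DTR and 17.4% of B6 tenocytes. Among cells called male, they were 35.6% of WT, 19.3% of DTR (17.1 to 21.6%) and 21.0% of B6 tenocytes (16.8 to 25.9%), so that DTR and B6 could not be told apart. With a mitochondrial limit of 5% the intervals of DTR and B6 overlapped as well, at 24.0% and 21.5%. The female share among other tenocytes was 71.9%, 36.9% and 52.8%.

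Members were deeper than the other tenocytes of their library. The median member held 14094 UMIs in WT, 14920 in DTR and 13769 in B6, and the median other tenocyte 12417, 12051 and 10934. The median number of detected genes was 3436, 3614 and 3228.5 in members against 2917, 2996 and 2473 in others. The median mitochondrial share of a member was 2.54%, 2.53% and 4.99%. No cell barcode was shared between members of different libraries.

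Members were compared with epitenon-rule cells by tendon genes that the rule did not use. *Scx*, the transcription factor that marks the tendon lineage, stood at 102, 123 and 97.1 CPM (UMIs of a gene per 1000000 UMIs summed over the class) in WT, DTR and B6 members, against 6.18, 5.73 and 2.17 CPM in epitenon-rule cells, which had at least 10 UMIs of the 6 epitenon genes, more of them than of the tenocyte genes, and the same limits on myeloid and endothelial genes. *Chad*, which encodes chondroadherin, stood at 2852, 2677 and 1169 CPM in members and at 58.1, 20.5 and 8.35 CPM in epitenon-rule cells. *Thbs4*, a matrix thrombospondin of tendon, stood at 1312, 1866 and 2200 CPM in members and at 79.5, 91.6 and 34.9 CPM in epitenon-rule cells. By these genes the members lay far above the epitenon-rule cells in each library. The rule itself split these classes by tenocyte and epitenon genes, so the difference describes them and adds no independent support.

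Epitenon transcripts were also more frequent in members than in other tenocytes. The 6 epitenon genes of the rule summed to 127, 174 and 230 CPM in members, to 41.9, 73.3 and 110 CPM in other tenocytes and to 3250, 2880 and 3199 CPM in epitenon-rule cells. At least 1 UMI of them was present in 43.0%, 51.1% and 61.4% of members and in 22.5%, 30.2% and 33.8% of other tenocytes. The wider epitenon list of 10 genes summed to 2536, 2661 and 3531 CPM in members and to 1237, 1219 and 1587 CPM in others, with *Clec3b* its most abundant gene in members and none of the 10 at 0 in members. The marker genes were themselves shared with that layer, because 76.9%, 75% and 59.5% of epitenon-rule cells held 3 or more UMIs of the 5 markers, against 6.90%, 7.16% and 6.07% of macrophage-rule cells (at least 10 UMIs of *C1qa*, *C1qb* and *C1qc* and fewer than 10 of the tenocyte genes) and 2.1%, 3.01% and 1.54% of other tenocytes. When only tenocytes without any UMI of the 6 genes were kept, a choice made after seeing the data, members were 28.4% of WT, 17.1% of DTR and 10.6% of B6 tenocytes. The 4 tenocyte genes of the rule summed to 5408, 5177 and 6024 CPM in members and to 9730, 8783 and 7889 CPM in other tenocytes. Each of the 4 was lower in members in every library. *Tnmd* stood at 266, 232 and 147 CPM in members and at 742, 768 and 557 CPM in others. *Kera* stood at 8.61, 11.1 and 5.66 CPM against 37.6, 45.8 and 47.1 CPM. Droplets that held a tenocyte and an epitenon cell could carry both sets of transcripts, and their part in the member levels was not tested. With the 5% of cells of highest doublet score left out, also a choice made after seeing the data, members were 34.6%, 22.1% and 16.9% of tenocytes.

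Markers of other cell types were compared between members and other tenocytes. The macrophage list summed to 38.2, 53.5 and 38.8 CPM in members and to 41.3, 73.5 and 60.1 CPM in other tenocytes, with *Lyz2* most abundant. The endothelial list summed to 14.5, 10.6 and 13.5 CPM with *Pecam1* and *Cdh5* at 0 by the rule, and the T cell list to 1.18, 0.88 and 0 CPM, where 0 in B6 allows up to 1.31 CPM. The mural list summed to 183, 222 and 109 CPM in members and 112, 128 and 61.2 CPM in others. Most of each sum was *Cspg4*, at 159, 178 and 96.3 CPM in members and 74.7, 94.1 and 41.5 CPM in others. The rest of the mural list was lower in members in WT and B6 and higher in DTR. The Schwann list summed to 178, 193 and 129 CPM in members and 191, 152 and 90.4 CPM in others. The muscle list summed to 22.6, 82.4 and 102 CPM in members and to 56.8, 111 and 187 CPM in others. The erythroid list, led by *Hbb-bs*, summed to 1446, 2525 and 27.0 CPM in members and to 775, 4020 and 1305 CPM in others. Most haemoglobin UMIs came from a few cells in WT and DTR members, since 5 cells held 92.3% of the 38086 haemoglobin UMIs of WT members and 92.2% of the 22887 of DTR members, while B6 members held 62 in all. At least 1 haemoglobin UMI was nevertheless present in 93.5% of DTR members, against 35.4% of WT and 32.3% of B6 members. The share was as high in the other DTR classes, at 92.5% of other tenocytes, 93.3% of epitenon-rule cells and 93.6% of macrophage-rule cells, so low haemoglobin counts were spread through the DTR library. The part of these transcripts in the differences below was not tested beyond the values given with them.

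*Slurp1* and *Vcan* supplied most of the UMIs that made a cell a member. *Slurp1* stood at 709 CPM in WT members, 760 in DTR and 510 in B6, and *Vcan* at 839, 644 and 431 CPM. *Serpinb7* stood at 154, 102 and 91.0 CPM, *Egln3* at 114, 71.1 and 78.8 CPM, and *Sema3e* at 49.6, 60.5 and 70.6 CPM. Of the summed marker UMIs, *Slurp1* gave 38.0%, 46.4% and 43.1% and *Vcan* 45%, 39.3% and 36.5%. *Sema3e* was the smallest part in each library, with 2.66% in WT, 3.69% in DTR and 5.97% in B6.

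The marker levels in other cells were lower. In other tenocytes *Slurp1* stood at 25.9, 24.6 and 14.6 CPM, but 5 cells held 32.3%, 46.1% and 87.4% of its UMIs there, since these cells included high-marker tenocytes over the *Igfbp3* or *Slpi* limits. In the other tenocytes within both limits, a comparison chosen after seeing the data, *Slurp1* stood at 7.70, 5.32 and 1.95 CPM, and in macrophage-rule cells at 3.60, 4.13 and 2.38 CPM. In epitenon-rule cells it stood at 230, 154 and 66.2 CPM, between other tenocytes and members. *Serpinb7*, *Vcan* and *Egln3* had the same order of members, epitenon-rule cells and other tenocytes in each library. *Sema3e* did not, because it was higher in epitenon-rule cells, at 173, 234 and 123 CPM, than in members.

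**Figure D2:**
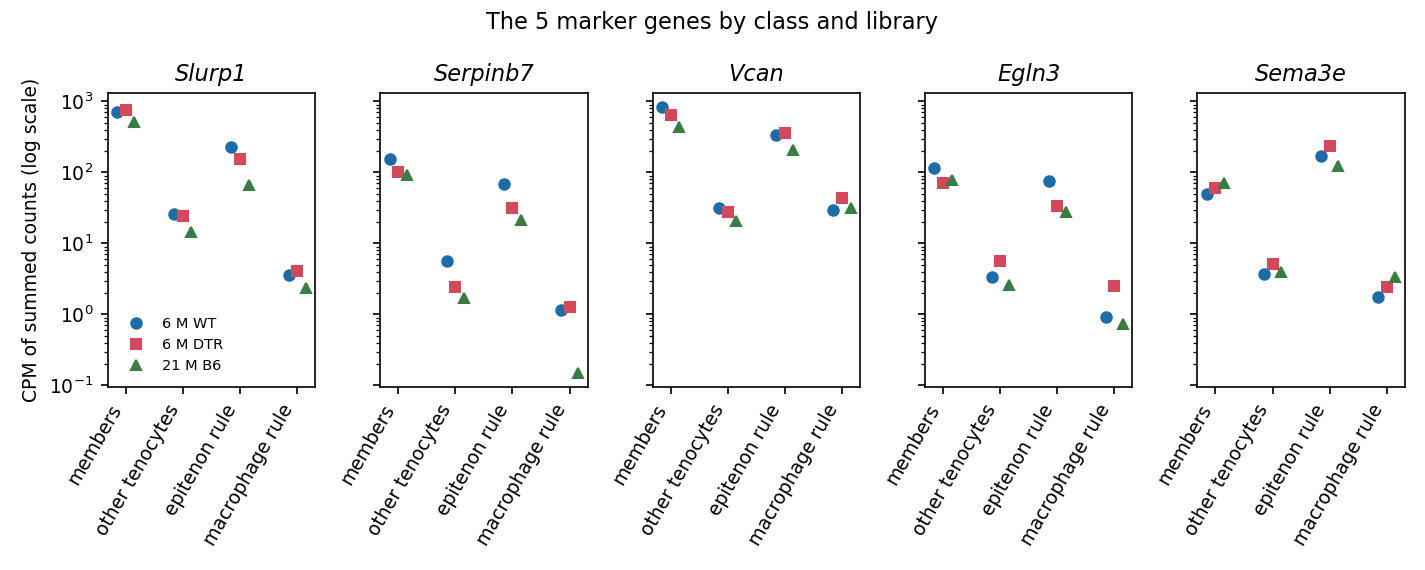
Level of each of the 5 marker genes (y axis, CPM of summed counts, log scale) in members, other tenocytes, epitenon-rule cells and macrophage-rule cells (x axis) of the 3 libraries. Points are single libraries with no replicate error; *Slurp1* is highest in members, at 510 to 760 CPM, while *Sema3e* is highest in epitenon-rule cells, at 123 to 234 CPM.

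A member rarely carried the whole set. All 5 genes were detected in 13.2%, 9.20% and 7.59% of members, and a single one in 17.1%, 19.1% and 19.6%. *Vcan* was detected in 88.2%, 88.2% and 86.7% of members and *Slurp1* in 75.5%, 73.4% and 59.5%. *Serpinb7* was detected in 57.4%, 42.1% and 39.9%, *Egln3* in 39.2%, 34.8% and 36.1%, and *Sema3e* in 31.8%, 38.3% and 46.8%. After thinning to 5000 UMIs, *Slurp1* was detected in 62.4%, 61.9% and 49.4% of members and in 2.44%, 1.68% and 0.90% of macrophage-rule cells, which should lack it. The genes therefore overlapped in part, and 24.5% of WT, 26.6% of DTR and 40.5% of B6 members had no *Slurp1* UMI at all.

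The summed marker count formed a range and not a separate peak. Its median in members was 15 UMIs in WT (quartiles 6 to 36), 12 in DTR (5 to 33.5) and 8 in B6 (4 to 21), with a highest cell at 293, 230 and 156. Among all tenocytes 41.3%, 55.7% and 67.3% had no marker UMI, and 5.92%, 3.61% and 1.60% had 50 or more. Just inside the threshold, at 3 UMIs, there were 174, 62 and 27 members, and just outside it, at 2 UMIs, 354, 126 and 39 tenocytes that met the *Igfbp3* and *Slpi* limits, of 375, 147 and 46 tenocytes with 2 UMIs in all. *Cd55*, which was not in the rule, stood at 47.3, 76.0 and 146 CPM just inside and at 39.5, 48.8 and 43.8 CPM just outside. *Npy* was likewise higher just inside in all 3 libraries, at 67.1, 150 and 49.5 CPM against 49.5, 94.2 and 29.2 CPM, and *Mmp2* lower, at 68.3, 548 and 182 CPM against 99.6, 613 and 242 CPM. Not every gene kept 1 direction across the threshold, since *Tppp3* stood at 81.3, 131 and 102 CPM inside and at 58.0, 82.0 and 131 CPM outside, and *Mstn* at 0.789, 443 and 10.4 CPM inside and at 8.28, 283 and 12.5 CPM outside. *Col1a1* stood at 7221, 5968 and 2564 CPM inside and at 6397, 5813 and 2268 CPM outside, so that it was higher just inside, although it was lower in members as a whole. Of the tenocytes that reached 3 UMIs (1838, 647 and 170), the *Igfbp3* limit removed 24, 45 and 12 and the *Slpi* limit 45, 16 and 0, with 1 DTR cell removed by both.

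Each marker stayed higher in members when it was left out of the choice. With members chosen by at least 2 UMIs of the other 4 genes, *Slurp1* was 9.65, 14.8 and 24.9 times higher in members than in other tenocytes of WT, DTR and B6. *Serpinb7* was 16.9, 28.7 and 33.6 times higher, *Vcan* 12.9, 13.3 and 10.6, *Egln3* 14.9, 8.01 and 12.1, and *Sema3e* 8.48, 8.21 and 6.95 times. The 5 genes were chosen for being found together in these cells, so these ratios describe the cells and add no independent support.

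Members and other tenocytes differed in few further genes by 2-fold. Of 5142 genes with a mean of at least 20 CPM, 82 (1.59%) were at least 2-fold higher and 37 (0.72%) at least 2-fold lower in members in all 3 libraries, with the genes of the rule left out. The choice of cells rests on the same counts, and nothing is read from these shares. Of the same genes 55.3% were higher and 16.3% lower by any amount in members in all 3 libraries, and 27.6% and 37% under scaling by trimmed mean of M values (TMM). The counts of list genes by direction below are to be read against these shares. The median gene was itself higher in members, by 0.16, 0.10 and 0.25 on the log2 scale, and TMM moved that median by -0.18, -0.14 and -0.29. Under TMM 46 genes were 2-fold higher and 62 lower, so the excess of higher genes depended on the scaling. Each gene family given a direction below kept the sign of its median under TMM in all 3 libraries.

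Several of the 15 highest genes encode proteins of the cell surface or secreted ones. *Cd55*, which encodes an inhibitor of complement, stood at 243, 306 and 400 CPM in WT, DTR and B6 members and at 30.1, 42.5 and 33.9 CPM in other tenocytes, which is 8.09 (95% interval 7.61 to 8.59), 7.19 (6.70 to 7.72) and 11.8 (10.4 to 13.4) times higher. *Tnfrsf11b*, which encodes osteoprotegerin, the decoy receptor for RANKL, stood at 125, 126 and 107 CPM in members and at 25.1, 30.7 and 12.9 CPM in others. *Ackr2*, a scavenging receptor for chemokines, was 4.20, 6.26 and 8.78 times higher in members. *Adgrd1*, an adhesion G protein-coupled receptor, was 5.63, 6.23 and 4.06 times higher, and the calcium-activated chloride channel gene *Ano1* 4.78, 3.99 and 10.4 times. *Islr2*, a leucine-rich repeat membrane protein gene of neurons, was 10.6, 9.03 and 5.92 times higher. All of these were higher in members in each library, with intervals clear of 1.

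The neuropeptide gene *Npy* stood at 298, 406 and 426 CPM in members and at 51.2, 53.8 and 113 CPM in other tenocytes. In B6 members 5 cells held 62.0% of its UMIs, so the B6 level describes a few cells. Tenocytes over the *Igfbp3* limit stood at 386 CPM in WT, above the members there, and at 136 and 62.7 CPM in DTR and B6. *Npy* was low in epitenon-rule cells, at 22.2, 11.7 and 11.0 CPM. *Cytl1*, which encodes a small secreted protein, was 8.11, 6.51 and 26.9 times higher in members, but 5 cells held 40.3%, 57% and 85.0% of its UMIs. In WT it too was higher in tenocytes over the *Igfbp3* limit, at 65.4 CPM, than in members, at 34.1 CPM. Without the cells over either limit among the others, all 15 genes were still at least 2-fold higher, and the ratio moved by more than 1.5 times in at least 1 library for 5 of them (*Cytl1*, *Tnfrsf11b*, *Sbsn*, *Uchl1* and *Lmo2*).

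*Sbsn*, *Sfn* and *Krt80*, known from squamous epithelium, were among the raised genes, but no list of such genes was tested. *Sbsn*, which encodes suprabasin, stood at 307, 296 and 150 CPM in members against 31.1, 72.5 and 21.5 CPM in others, and in B6 members 5 cells held 60.3% of its 345 UMIs. *Sfn*, which encodes stratifin, was 3.49, 3.5 and 3.38 times higher, and in B6 rested on 52 UMIs, of which 5 cells held 65.4%. *Krt80*, a keratin gene, was also more than 2-fold higher in all 3 libraries. This grouping, like that by place in the cell, was made after the values were seen.

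Inside the cell, *Tppp3*, which encodes a microtubule-binding protein known from tendon sheath, stood at 260, 320 and 324 CPM against 45.4, 50.9 and 67.4 CPM. *Ugp2*, which encodes the enzyme that makes UDP-glucose, stood at 319, 472 and 418 CPM against 83.0, 112 and 95.4 CPM. *Uchl1*, a ubiquitin hydrolase gene, was 4.08, 6.90 and 6.53 times higher, with 57.7% of its B6 UMIs in 5 cells. The transcription cofactor gene *Lmo2* was 7.74, 3.77 and 6.76 times higher and *AA467197* 13.6, 6.63 and 19 times.

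Some of the raised genes were higher still in the epitenon-rule cells. Of the 82, 34 were higher in epitenon-rule cells than in members in all 3 libraries and 31 were lower in all 3. Of the 37 genes lower in members these counts were 17 and 16, so the split against members did not set the raised genes apart. Against other tenocytes, 66 of the 82 raised genes were higher in epitenon-rule cells in all 3 libraries and 5 were lower. For the 37 lower genes these counts were 6 and 23. Members and epitenon-rule cells thus mostly differed from other tenocytes in the same direction for these genes. *Cd55* stood at 837, 1057 and 768 CPM in epitenon-rule cells, above members. *Ano1*, *Cytl1*, *Npy*, *Sfn* and *Tnfrsf11b* were those of the 15 that were higher in members than in epitenon-rule cells in all 3 libraries. Among tenocytes without any UMI of the 6 epitenon genes, 12 of the 15 were still at least 2-fold higher in members in each library, the exceptions being *Npy*, *Sbsn* and *Uchl1*. In that setting B6 members had *Npy* at 0.97 and *Sbsn* at 0.95 times the level of other tenocytes.

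**Figure D3:**
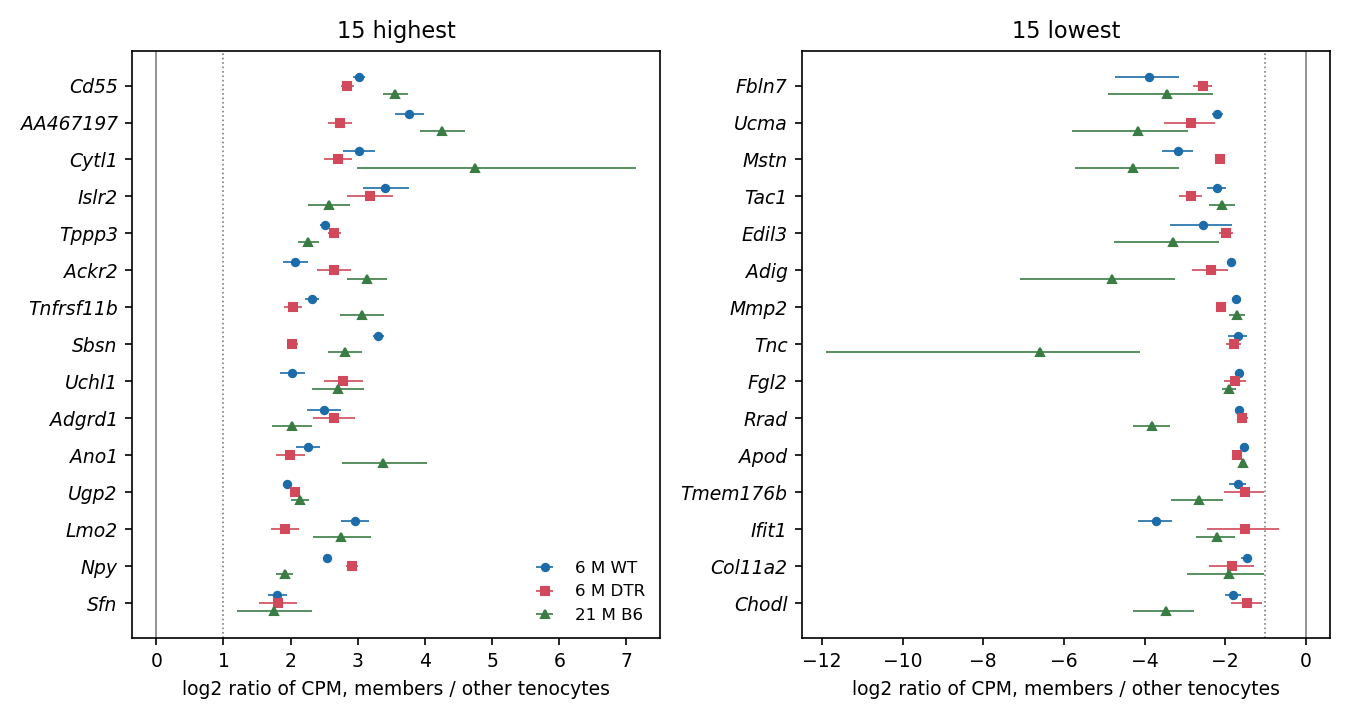
Log2 ratio of CPM in members to CPM in other tenocytes (x axis) for the 15 highest and 15 lowest genes, ranked by the library closest to 1, with 1 point per library and a dotted line at 2-fold. Bars are exact 95% intervals for counting error; as plain ratios, *Cd55* lies between 7.19 and 11.8 and *Mmp2* between 0.23 and 0.31 in the 3 libraries.

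The 15 genes lowest in members were also of mixed kinds. *Mmp2*, which encodes a gelatinase, stood at 41.5, 190 and 108 CPM in WT, DTR and B6 members and at 139, 811 and 350 CPM in other tenocytes, a ratio of 0.30 (0.28 to 0.32), 0.23 (0.22 to 0.25) and 0.31 (0.27 to 0.35). *Apod*, which encodes a lipid-binding lipocalin, stood at 284, 209 and 719 CPM in members and at 826, 686 and 2121 CPM in others. Members thus had well under the level of other tenocytes for both genes in every library, although the libraries themselves differed.

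*Mstn*, which encodes myostatin, stood at 2.35, 73.6 and 2.61 CPM in members and at 21.2, 323 and 50.8 CPM in others, and 5 cells held 77.7% of its 668 UMIs in DTR members. The tenocytes over the *Igfbp3* limit, which the rule bars from the members, stood at 306 CPM in WT, and without the cells over either limit the WT ratio was 0.19 in place of 0.11. *Tac1*, a neuropeptide gene, moved likewise in WT from 0.22 to 0.38, while all 15 lowest genes stayed at least 2-fold lower. *Tnc*, which encodes tenascin C, had ratios of 0.31, 0.29 and 0.01, the last from 1 UMI in B6 members (interval 0.000262 to 0.0581). *Fbln7* (0.07, 0.17 and 0.09), a fibulin gene, *Ucma* (0.22, 0.14 and 0.06), a cartilage matrix gene, and *Edil3* (0.17, 0.25 and 0.10), an integrin ligand gene, were among the lowest. Their B6 ratios rest on 6, 5 and 6 UMIs in members, all within 5 cells, with intervals of 0.033 to 0.20, 0.018 to 0.13 and 0.037 to 0.22. *Thbs4* was 0.41, 0.41 and 0.50 times and *Lum*, which encodes lumican, 0.43, 0.31 and 0.31 times the level of other tenocytes. In tenocytes without epitenon UMIs, 12 of the 15 lowest genes stayed at least 2-fold lower in each library, the exceptions being *Chodl*, *Fgl2* and *Ifit1*.

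The levels of these genes were also set out by marker count. They were chosen by a split on that same count, so a difference between the lowest and the highest bin follows from the choice and is given as a description. Tenocytes thinned to 5000 UMIs were placed in 5 bins of 0, 1, 2, 3 to 5 and 6 or more marker UMIs. Because thinning removes marker UMIs, members at full depth were 3.65%, 1.28% and 1.59% of the first bin in WT, DTR and B6, and 71.0%, 68.2% and 72.4% of the bin at 2 UMIs. *Cd55* stood at 22.6, 40.5, 88.7, 124 and 401 CPM from the first to the last bin in WT, at 32.2, 65.9, 101, 230 and 567 CPM in DTR, and at 20.4, 129, 200, 194 and 668 CPM in B6. *Thbs4* ran the other way, from 3340 to 746 CPM in WT, from 4921 to 944 CPM in DTR and from 4377 to 616 CPM in B6. Of the 15 highest genes, 11, 9 and 5 were higher at every step in WT, DTR and B6, and of the 15 lowest 8, 8 and 1 were lower at every step. The smallest bin held 29 B6 cells.

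**Figure D4:**
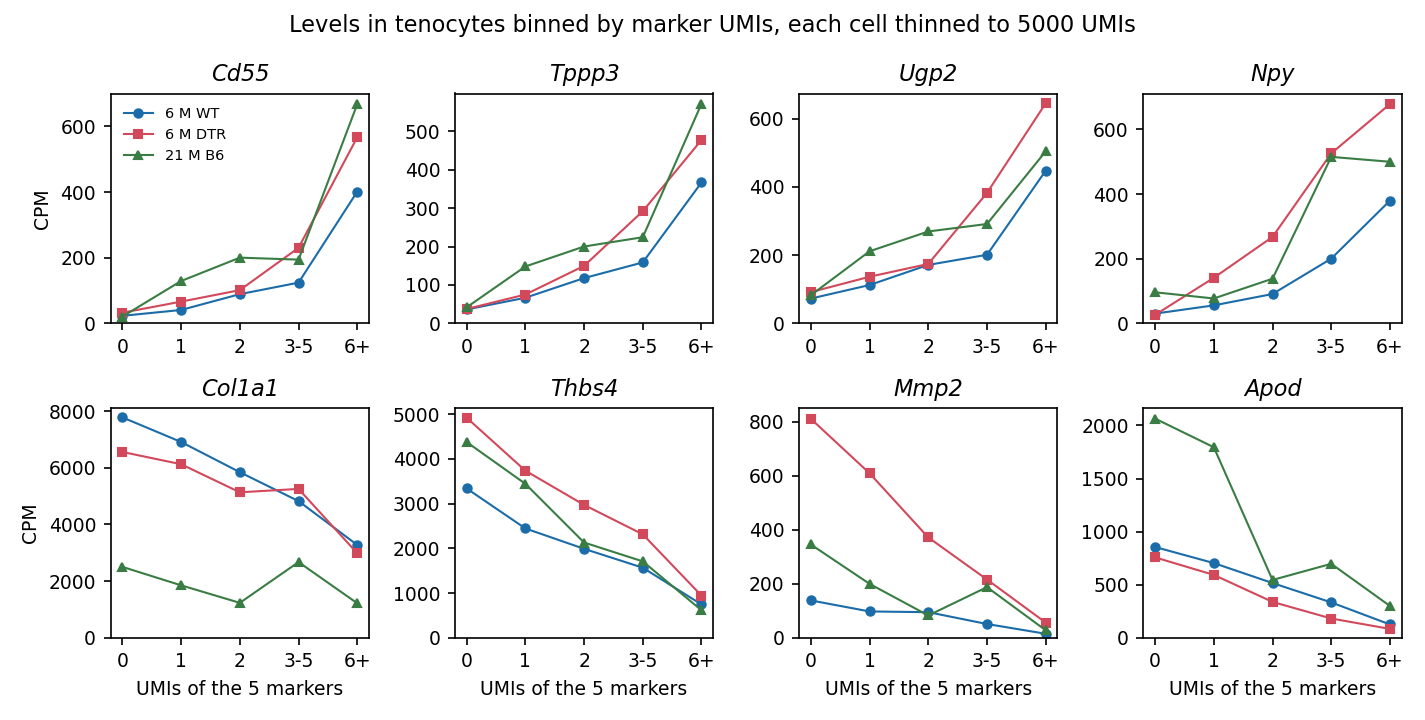
Level (y axis, CPM) of 8 genes in tenocytes thinned to 5000 UMIs, in 5 bins of summed marker UMIs (x axis), with 1 line per library and no replicate error. *Cd55* lies at 20.4 to 32.2 CPM in the lowest bin and at 401 to 668 CPM in the highest, and *Thbs4* runs in the opposite direction.

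The type I collagen genes were lower in members, while the other collagen genes were divided. *Col1a1* stood at 4400, 4100 and 1815 CPM in WT, DTR and B6 members and at 7372, 6592 and 2419 CPM in other tenocytes, and *Col1a2* at 0.58, 0.62 and 0.75 times the level of others. *Col3a1* (1.70, 1.14 and 1.26 times) and *Col6a3* (2.51, 1.84 and 1.46 times) were higher in members. Of 14 collagen genes tested, 7 were higher and 6 lower in members in all 3 libraries under CPM scaling and 4 and 6 under TMM, and 1 was 2-fold lower. *Dcn*, the decorin gene, stood at 27862, 30430 and 24723 CPM in members and at 36528, 31782 and 30883 CPM in others, while *Comp* stood at 1.26, 1.11 and 1.12 times the level of others under CPM scaling, a direction that turned in B6 under TMM (log2 ratio -0.14).

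Of 8 tendon lineage genes not in the rule, 3 were higher and 4 lower in all 3 libraries, and 1, *Thbs4*, was 2-fold lower. *Scx* was 1.23, 1.12 and 1.46 times higher in members and *Mkx*, another tendon transcription factor gene, 0.85, 0.72 and 0.83 times the level of others. The *Scx* direction turned slightly in DTR male cells and in B6 female cells. *Coch*, which encodes cochlin, stood at 8100, 1879 and 2972 CPM in members and at 14722, 3323 and 5934 CPM in others. *Chad* was 1.01, 1.00 and 0.78 times, and its direction turned in B6 female cells and, in WT, after thinning and under TMM.

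The list of versican-cleaving proteases, related metalloproteases and their inhibitors was lower in members. Of 8 tested, 7 were lower and 0 higher in all 3 libraries, 2 of them 2-fold (*Mmp2* and *Mmp3*), with median log2 ratios of -0.65, -0.67 and -1.29 against 0.16, 0.10 and 0.25 over all genes tested. *Adamts1*, a versican-cleaving protease gene, was at 0.44, 0.52 and 0.48 times, and *Adamts5* at 0.75, 0.56 and 0.30 times, the level of other tenocytes. *Mmp14*, the gene of a membrane-bound protease, was at 0.93, 0.70 and 0.98 times, with intervals that included 1 in WT and B6. The other 3 genes encode metalloprotease inhibitors, and of these *Timp1* was at 0.54, 0.83 and 0.35 times and *Timp3* at 0.88, 0.79 and 0.92 times. *Timp2* was the exception at 1.02, 0.98 and 1.30 times.

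Versican's partners did not move as a group. Of 8 genes tested for versican and hyaluronan, 4 were higher and 3 lower in all 3 libraries, with medians of 0.17, 0.16 and 0.09. The hyaluronan synthase gene *Has1* stood at 455, 459 and 1513 CPM in members and at 172, 203 and 701 CPM in others. *Fbln2*, a versican-binding fibulin gene, was 2.45, 2.31 and 2.80 times higher and the fibrillin gene *Fbn1* 1.96, 2.08 and 3.56 times.

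The hypoxia genes did not follow *Egln3*. Of 14 HIF hydroxylase and hypoxia target genes tested, 5 were higher and 5 lower in all 3 libraries, with medians of 0.12, 0.02 and -0.10. The hydroxylase gene *Egln1* was 1.31, 1.20 and 1.98 times higher in members. *Hif1a* stood at 0.81, 0.84 and 0.75 times, *Vegfa* at 0.76, 0.61 and 0.42 times and *Angptl4* at 0.46, 0.47 and 0.28 times the level of others. Of 15 glycolysis genes, 11 were higher and 2 lower in all 3 libraries under CPM scaling and 8 and 4 under TMM, against 55.3% and 16.3% of all genes under CPM and 27.6% and 37% under TMM. The medians were 0.33, 0.24 and 0.36 under CPM and 0.14, 0.09 and 0.06 under TMM. The lactate exporter gene *Slc16a3* stood at 29.0, 47.8 and 23.1 CPM in members against 6.07, 20.4 and 3.02 CPM in others, and *Hk2*, a hexokinase gene, was lower at 0.72, 0.66 and 0.61 times.

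Relatives of the other markers were compared in the same way. All 4 LY6/uPAR family genes tested were higher in members in all 3 libraries (3 under TMM), none of them 2-fold in all, with medians of 0.66, 1.06 and 0.78. *Ly6a*, a surface protein gene, stood at 826, 914 and 867 CPM in members and at 386, 426 and 465 CPM in others. Of 7 serpin genes 2 were higher and 2 lower, and *Serpine2*, a protease inhibitor gene, was 4.35, 1.78 and 3.69 times higher. Of 6 semaphorin and receptor genes 3 were higher and 2 lower, none 2-fold.

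Interferon-induced and guanylate-binding protein genes were lower in members, 9 of 10 in all 3 libraries and none higher, against 16.3% of all genes lower, with medians of -0.50, -0.32 and -0.70 against 0.16, 0.10 and 0.25 over all genes. *Gbp2* stood at 180, 62.0 and 102 CPM in members and at 275, 82.7 and 218 CPM in others. Of 13 NRF2 and cystine genes, 7 were lower and 2 higher in all 3, with medians of -0.28, -0.17 and -0.32. The insulin-like growth factor list had 6 of 10 higher and 1 lower under both CPM and TMM scaling. Of all genes 55.3% were higher and 16.3% lower under CPM, and 27.6% and 37% under TMM. The list medians were 0.30, 0.41 and 0.46 under CPM and 0.12, 0.27 and 0.16 under TMM. Its protease genes *Htra3* (2.13, 2.91 and 2.89 times) and *Htra4* (2.55, 2.55 and 3.28 times) were past 2-fold. Of 18 TGF-beta and myostatin genes, *Ltbp2*, which encodes a microfibril protein, was 6.14, 3.28 and 13.6 times higher and *Fstl1*, a secreted modulator of the pathway, 2.51, 2.30 and 2.79 times, while *Mstn* was lower. In B6, 5 cells held 48.7% of the 409 *Ltbp2* UMIs of members and 71.1% of the 121 of other tenocytes. Of 19 collagen processing genes, the prolyl hydroxylase gene *P4ha2* (3.52, 2.60 and 3.70 times) and *Pcolce2* (2.08, 2.62 and 2.1 times) were past 2-fold.

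Within the members, the DTR library was compared with WT. Of 5395 genes, 27 (0.5%) were at least 2-fold higher and 35 (0.649%) at least 2-fold lower in DTR members, and in other tenocytes 122 (2.41%) and 93 (1.84%) of 5054. The number of cells differs between these comparisons, and the difference between them was not tested. *Scx*, whose lineage the toxin targeted, stood at 102 CPM in WT and 123 in DTR members. *Hbegf* encodes a growth factor whose mouse form does not serve as an effective diphtheria toxin receptor, unlike the primate form used in such transgenes. It stood at 169, 384 and 241 CPM in WT, DTR and B6 members and at 249, 355 and 393 CPM in other tenocytes. In epitenon-rule cells it stood at 156, 282 and 223 CPM. Whether transcripts of the receptor transgene were counted under *Hbegf* was not tested.

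The marker genes lay within 2-fold of each other in WT and DTR members. *Slurp1* was 1.07 times (95% interval 1.04 to 1.10) and *Sema3e* 1.22 times the WT level, and *Vcan*, *Serpinb7* and *Egln3* were 0.77, 0.67 and 0.62 times. These values belong to cells chosen by the same genes and were not read further.

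The 10 genes highest in DTR against WT members were of mixed kinds. *Mmp2* was 4.58 times higher (4.24 to 4.95) in members and 5.85 times in other tenocytes. The calcification inhibitor gene *Mgp* was 2.64 and 3.11 times higher, and *Ltbp2* 2.5 and 4.69 times, in members and others respectively. *Tmem119*, a membrane protein gene known from bone-forming cells and microglia, was 4.03 and 7.53 times higher. *Mstn* had the highest ratio, 31.3 in members and 15.2 in others, but 5 cells held most of its UMIs in DTR members, as given above. The 10 also held the membrane protein genes *Nsg1* (3.15 times in members, 5.43 in others) and *Jam2* (2.39 and 2.43 times). The direction was the same in members and in other tenocytes for each of these genes.

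*Coch* was the most abundant of the 10 genes lowest in DTR members, with 8100 CPM in WT and 1879 in DTR, 0.23 times in members and in others alike. The other 9 included the guanylate-binding protein genes *Gbp6* (0.20 times in members, 0.18 in others) and *Gbp2* (0.34 and 0.30). They also held the lipase inhibitor gene *Angptl4* (0.20 and 0.20), the cystine transporter gene *Slc7a11* (0.27 and 0.22) and the receptor gene *Tlr2* (0.29 and 0.33). The chemokine gene *Cxcl10* was at 0.32 times in members and 0.56 in others, and in DTR members 5 cells held 62.0% of its UMIs. Of 8 interferon and guanylate-binding protein genes, 4 were 2-fold lower and 0 higher in DTR members, against 0.649% and 0.5% of all genes tested. Their median log2 ratio was -0.85 in members and -0.78 in other tenocytes, against 0.01 and 0.07 over all genes tested. Of 18 acute phase and NF-kappa B genes, 4 were 2-fold lower and 0 higher, against the same shares of all genes. Their median was -0.49 in members and -0.69 in other tenocytes. Of 13 NRF2 and cystine genes 11 were lower, 1 of them 2-fold, where 47.8% of all genes were lower and 52.2% higher by any amount. The median of that list was -0.50 in members and -0.57 in other tenocytes. These lists were thus lower in DTR in both classes and not in members alone. *Col1a1* (0.93 times) and *Chad* (0.94 times) were near the WT level.

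The 21 M B6 members differed from WT members in more genes. Of 5255 genes, 110 (2.09%) were at least 2-fold higher and 92 (1.75%) at least 2-fold lower, against 166 (3.47%) and 69 (1.44%) of 4784 in other tenocytes. Both comparisons used the same WT members, and age, genotype, DT treatment and digestion time differed together here. The B6 members numbered 158 cells with 2296078 UMIs, so single cells weigh more in these values than in the others.

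Heat shock genes stood higher in B6 members. *Hspa1a* stood at 83.6, 104 and 844 CPM in WT, DTR and B6 members and at 58.8, 72.9 and 961 CPM in other tenocytes, and *Hspa1b* at 80.8, 88.9 and 925 CPM in members. All 14 heat shock genes tested were higher in B6 than in WT members, against 34.3% of all genes higher by any amount. Of the 14, 7 were 2-fold higher, against 2.09% of all genes. Their median log2 ratio was 1.01 in members and 0.97 in others, against -0.11 over all genes tested. The B6 level was thus high in all tenocytes and not in members alone, and the mitochondrial UMI share was also higher in B6, as given above.

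Some versican and hyaluronan genes were higher in B6 members, and the difference from other tenocytes was not tested. Of 8 such genes 5 were 2-fold higher in B6 members and 0 lower, against 2.09% and 1.75% of all genes tested. The median was 1.20 in members and 0.45 in other tenocytes, against -0.11 over all genes tested in members. *Tnc* was below the CPM minimum here and not among the 8, at 6.49 CPM in WT and 0.44 CPM in B6 members. *Has1* was 3.33 times higher (3.20 to 3.46) in members and 4.08 times in other tenocytes. *Fbn1* was 2.33 times higher (2.16 to 2.52) in members and 1.29 times in others, and the hyaluronan synthase gene *Has2* 2.44 and 1.19 times, while *Vcan* itself was 0.51 times the WT level. *Slurp1* was 0.72, *Egln3* 0.69 and *Serpinb7* 0.59 times and *Sema3e* 1.42 times.

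Several collagen genes, those of type I among them, were lower in B6 members. *Col1a1* stood at 4400 CPM in WT and 1815 in B6 members, 0.41 times (0.40 to 0.43), and 0.33 times in other tenocytes. *Col6a3* was 0.27 times in members and 0.46 in others, and *Col1a2* 0.50 and 0.39 times. Of 12 collagen genes tested, 6 were 2-fold lower and 0 higher, against 1.75% and 2.09% of all genes tested. Their median was -0.89 in members and -0.60 in others. *Col12a1* (1.13 times) and *Col16a1* (1.21 times) were the 2 that stood above WT, and 65.7% of all genes were lower by any amount. The secreted phosphoprotein gene *Spp1* was 0.23 times in members and 0.22 in others, *Chad* 0.41 and 0.53 times, and *Coch* 0.37 and 0.40 times.

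Several of the 10 highest and lowest B6 genes rested on few cells. *Ctla2a* was 24.9 times higher, but 5 cells held 100% of its 102 UMIs, and *Tac1* was 6.13 times higher with 96.5% of its UMIs in 5 cells. The 4 haemoglobin genes were at 0.02 times the WT level, and the WT level came from a few cells. *Nos2*, the inducible nitric oxide synthase gene, stood at 79.4, 41.3 and 4.36 CPM in members, and the acute phase gene *Lcn2* at 142, 114 and 9.15 CPM, from 21 UMIs in B6.

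**Figure D5:**
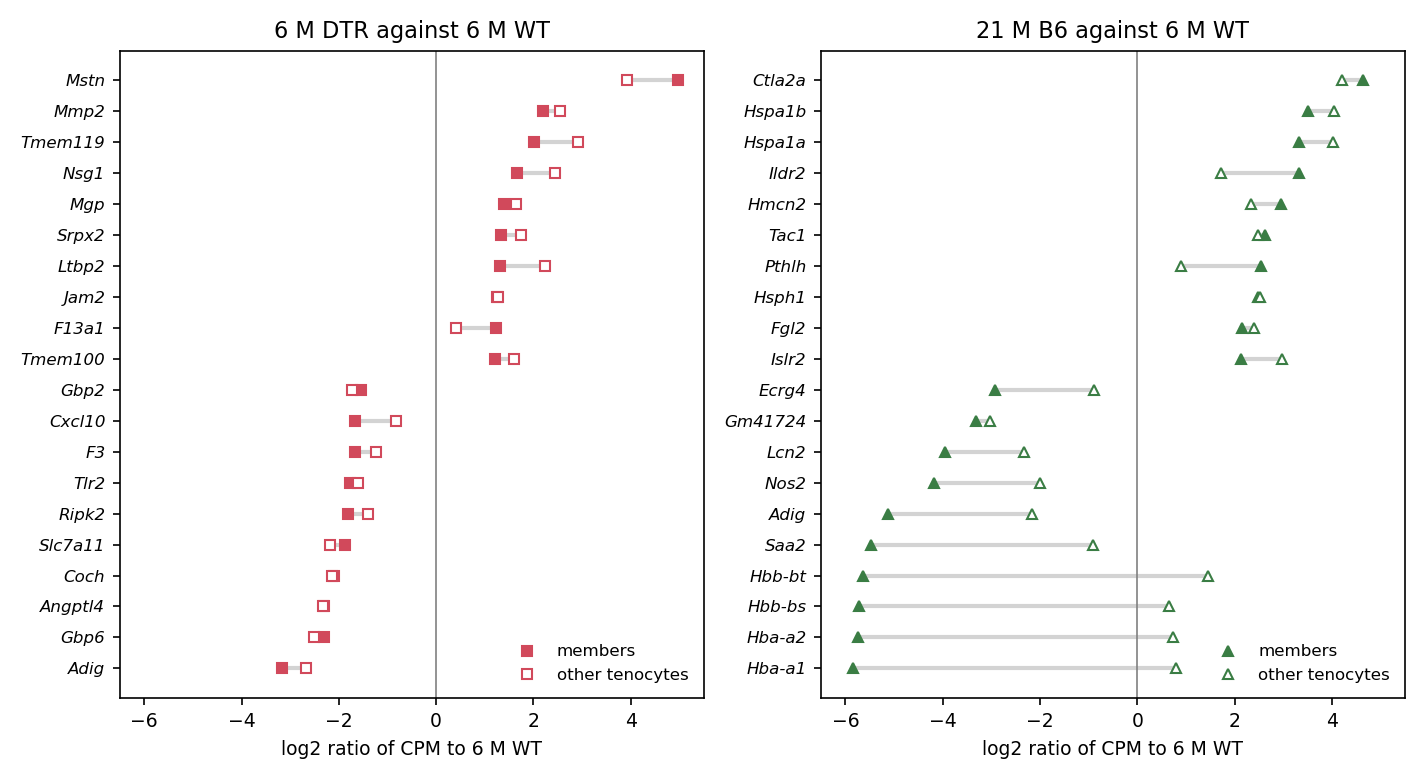
Log2 ratio of CPM to 6 M WT (x axis) for the 10 highest and 10 lowest genes of 6 M DTR (left) and of 21 M B6 (right) members, with members as filled and other tenocytes as open symbols. Each symbol compares 1 library with 1 library, and no replicate error exists; as a plain ratio, *Coch* lies at 0.23 in DTR members and in other tenocytes alike, while the haemoglobin genes lie apart in B6.

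The change from WT was set against that in other tenocytes gene by gene, as a description. Only genes with a mean of at least 20 CPM in both classes were ranked. For DTR the 5 genes with the most positive difference in log2 ratio were *Lcn2* (1.92), *Saa2* (1.77), *Gdf15* (1.46), *Rgs5* (1.43) and *Saa1* (1.42). The acute phase genes *Lcn2*, *Saa1* and *Saa2* were lower in DTR in both classes, and less so in members. In DTR members 5 cells held 87.2% of the 358 *Saa2* UMIs, 54.8% of the *Lcn2* UMIs and 51.0% of the *Rgs5* UMIs, so a few cells weigh heavily in these differences. The 5 most negative were *Hbb-bt* (-2.86), *Hba-a1* (-1.68), *Hba-a2* (-1.68), *Vcam1* (-1.64) and *Cox4i2* (-1.58). *Cox4i2*, a subunit gene of cytochrome c oxidase, was 1.42 times the WT level in DTR members and 4.23 times in other tenocytes. For B6 the 5 most positive were *Fdps* (1.30), *Dab2ip* (1.27), *Plekhg3* (1.17), *Lhfpl2* (1.12) and *Igfbp4* (1.11). *Pthlh* (1.63) and *Ildr2* (1.60) had larger differences but lay below the 20 CPM minimum in other tenocytes. The 5 most negative were the 4 haemoglobin genes, at -6.37 to -7.10, and *Saa2* (-4.58), which had 5 UMIs in B6 members. *Igfbp4*, which encodes a binding protein of insulin-like growth factor, stood at 165 CPM in WT and 218 in B6 members, and at 251 and 154 CPM in other tenocytes.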

How the data were processed

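FDL tendon cells were captured with 10x Chromium 3′ version 3 chemistry, and the authors deposited raw UMI counts per gene and barcode, with no normalization, for 3 libraries. The matrix headers name Cell Ranger 6.0.1 and the submitters' processing notes Cell Ranger 2.1.1; the genome build is not given in the sources used here. The deposited matrices held 15536, 16099 and 12273 barcodes with 148149903, 123918145 and 92707026 UMIs in the WT, DTR and B6 libraries. Barcodes with 1000 to 5000 detected genes and at most 10% mitochondrial UMIs were kept (8357, 6554 and 4798). Library labels give the age at injection for both young groups, and the study's methods give tendon harvest 3 months later. Counts of 32285 genes were summed per class and library and scaled to CPM in Python 3.11.15. Genes with a mean of at least 20 CPM over the sums compared were described, with exact conditional 95% intervals for ratios and a floor of 3 counts for a sum of 0. A gene was past 2-fold at a ratio of at least 2 or at most 0.5. Differences between classes were ranked only where the mean was at least 20 CPM in both classes. TMM factors came from edgeR 4.0.16. Genes were named from the rule, from the 15 highest and lowest between members and other tenocytes and from 32 gene lists. They were also named from the 10 highest and lowest between libraries and the 5 highest and lowest differences between classes. Values are printed for part of these genes, and most rule genes entered only as sums or limits. Members and lists were chosen with earlier results of these data known. Doublets were kept. Scrublet called 1, 6 and 1 cells, too few for its calls to be relied on, and how well its scores separate doublets was not tested. Libraries shared 15, 14 and 13 barcodes among kept cells. Simulated counts for the members' comparison (4980 genes) were drawn with Poisson error from the summed levels. They held no spread between cells and no choice of members by their genes. On them, 100% of genes changed 4-fold up, 98% of those changed 2.5-fold up and 0% of unchanged genes were past 2-fold. These figures cover counting error alone, and not calls that come from a few cells or from the choice of members. Alternatives covered depth, filters, rule thresholds, sex, scaling and the CPM minimum.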

Additional observations from a re-analysis of the deposited data

Results flagged for a closer look

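Barcodes outside the quality filter also met the member rule, with 167 from the WT library, 96 from DTR and 41 from B6. They were 44.9%, 25.6% and 15.6% of the tenocytes outside the filter, and 160, 85 and 27 of them had more than 5000 detected genes. They entered no other value except the setting without an upper gene limit.

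For 5 genes, each with a mean of at least 20 CPM in both classes, the B6 level lay more than 1.5-fold below WT in members and more than 1.5-fold above it in other tenocytes, by the whole 95% interval of each ratio. Genes that went in opposite directions by less, or with lower levels, are not listed, and no difference between the classes was tested with 1 library per group. *Vcam1*, a vascular adhesion molecule gene, differed by -2.53 on the log2 scale (members minus others), with 25 UMIs in B6 members, of which 5 cells held 72.0%. The haemoglobin genes differed by -7.10 (*Hbb-bt*), -6.37 (*Hbb-bs*), -6.48 (*Hba-a2*) and -6.62 (*Hba-a1*). In WT members 5 cells held 92.3% of the haemoglobin UMIs and in B6 other tenocytes 5 cells held 97.6%.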

How the results depend on the processing

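The WT share of members stayed above those of DTR and B6 in all alternatives, and DTR stayed above B6 in all except male cells. The cause of the shifts below was not tested. The WT share (35.0%) was 21.3% after thinning, 36.5% with no upper gene limit, 32.3% at 20 tenocyte UMIs, 42.0% at 2 and 28.8% at 5 marker UMIs, 36.4% without the *Igfbp3* and *Slpi* limits and 28.4% without epitenon UMIs. The DTR share (22.8%) was 12.7%, 24.6%, 20.6%, 27.6%, 18.3%, 25.1% and 17.1% in the same settings, and 19.3% in male and 30.0% in female cells. The B6 share (16.9%) was 10.0% after thinning, 21.5% at a mitochondrial limit of 5%, 21.0% at 2 and 12.3% at 5 marker UMIs, 21.0% in male cells and 10.6% without epitenon UMIs. Leaving out the 5% of cells with the highest doublet scores, female cells, cells without epitenon UMIs and others without the cells over the *Igfbp3* and *Slpi* limits were settings chosen after seeing the data.

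Counts of genes past 2-fold moved with the level required and with other settings. Members against others had 82 higher, and 142 at 5 CPM, 50 at 50 CPM, 46 under TMM and 53 at 2 marker UMIs. They had 37 lower, and 74 at 5 CPM, 23 at 50 CPM, 62 under TMM, 59 after thinning and 24 without epitenon UMIs. DTR members had 27 higher, and 96 at 5 CPM, 13 at 50 CPM, 46 after thinning and 49 in female cells. They had 35 lower, and 83, 21, 71 and 62 in the same settings. B6 members had 110 higher, and 240 at 5 CPM and 70 at 50 CPM. They had 92 lower, and 288, 44, 204 after thinning and 195 without epitenon UMIs.

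Log2 ratios of 37 genes (the 15 highest, the 15 lowest and *Col1a1*, *Col1a2*, *Tnmd*, *Scx*, *Coch*, *Chad* and *Gbp2*) were recomputed in each alternative but the CPM minimum, and those of the 5 markers with each left out of the rule. Other list genes were recomputed singly under TMM alone, where *Comp* turned in B6 as reported. Of the 1680 values for these 37 genes and 5 markers 17 changed sign, 11 of them for results whose interval in the report left out 1. The other 6 were *Chad* in DTR (0.0046 on the log2 scale), which ranged from -0.14 to 0.22. *Scx* turned to -0.027 in DTR male cells and to -0.033 in B6 female cells. *Chad* in WT turned to -0.033 after thinning, -0.062 with no upper gene limit, -0.044 without the *Igfbp3* and *Slpi* limits, -0.10 in male cells, -0.051 without the cells over the *Igfbp3* and *Slpi* limits among the others and -0.16 under TMM, and in B6 to 0.41 in female cells. *Sbsn* (-0.076) and *Npy* (-0.047) turned in B6 without epitenon UMIs. Of 900 list medians 83 changed sign, 80 of them for medians within 0.25 of 0 as reported. The others turned for the small leucine-rich proteoglycans in B6, to 0.030 at 5 marker UMIs and 0.41 in female cells, and for semaphorins in B6 without epitenon UMIs, to -0.032. No paired analysis was possible because each group has 1 library. The B6 library had the fewest members, with 158 cells.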
